A study of Mus musculus with 18 samples.

Results

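The extensor digitorum longus (EDL) of mice flown for 30 days was compared with the EDL of mice that stayed on the ground in a copy of the flight habitat, gene by gene. The comparison holds 6 of the 18 arrays of the series, chosen by their titles alone: 3 of flown mice (BF) and 3 of habitat controls (BG). BF mice lived aboard the Bion M1 biosatellite, and BG mice were held on the ground for the same 30 days in an identical habitat. Another 3 EDL arrays came from mice of the animal facility (FC), and the remaining 9 from soleus in the same 3 conditions. All were male mice of 19 to 20 weeks, labelled C57/BL6, with no transgene or deletion named. BF and BG mice ate paste food and FC mice ordinary chow. BF mice alone went through launch, landing and transport before dissection, so flight, landing and transport cannot be told apart. Each array held RNA of 1 muscle. The description of BF EDL2 says Bion M2 and that of BF EDL3 says Bion M3, but the source label of both says Bion M1, and both were kept in BF. In whole muscle, fewer cells of a type and less RNA per cell cannot be told apart.

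The EDL lifts the toes and is built almost wholly of fast fibres, which burn glucose and glycogen and contract with the fast myosins Myh4, Myh1 and Myh2. It bears little of the body's weight, unlike the slow postural soleus. Muscle fibres adjust their size through the insulin and mTOR pathway, which drives protein synthesis, and through FoxO factors and glucocorticoids, which drive the breakdown of protein. A dissected muscle also carries blood vessels, nerve, connective tissue, fat and whatever clings to its surface.

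The fibre markers were those of a fast muscle, as labelled. Myh4, the fastest myosin, read 14.12, 14.26 and 14.07 in BF EDL1, 2 and 3, against 14.12, 14.06 and 14.02 in BG EDL1, 2 and 3, on the log2 scale of the normalised signal. Parvalbumin (Pvalb), the calcium buffer of fast fibres, stood at 14.14, 13.95 and 14.20 in BF and at 14.18, 14.21 and 14.26 in BG. The mean of 15 fast fibre genes spanned only 13.65 to 13.79 over all 9 EDL arrays, while that of 15 slow fibre genes spanned 7.04 to 9.50, below the 10.89 to 11.98 of the 9 soleus arrays. Correlations over all probe sets were 0.98 to 0.987 for the 5 pairs that include BG EDL2 and 0.982 to 0.994 for the other 10 pairs.

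Few genes differed between BF and BG EDL. With all 6 arrays more of them were higher than lower in BF. At an adjusted p under 0.05, 45 genes rose and 20 fell, which is 0.363% and 0.161% of the 12393 genes measured. The looser rule that the study applied to EDL, a change of more than 2-fold with an unadjusted p under 0.05, called 43 genes higher in BF (0.347%) and 29 lower (0.234%). Both conditions together, over 2-fold and adjusted p under 0.05, left 24 genes higher and 5 lower in BF (0.234% in all). Rose and fell are used here for genes past the adjusted threshold. The log2 fold changes of all genes had a median of -0.03 and an SD of 0.25. All 3 BF arrays lay above all 3 BG arrays in 840 genes (6.78%) and below them in 1084 (8.75%).

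These counts rested on single arrays. BG EDL2 stood apart from the other BG arrays by its epithelial RNA, described next, and the comparison was also run without it. Then 20 genes rose (0.161%) and 4 fell (0.0323%), of which 17 and 2 were among the genes called with all 6 arrays. The looser rule called 32 genes higher (0.258%) and 17 lower (0.137%) without BG EDL2, and 31 and 8 of these had been called with it. Lep was newly called higher, and Aqp4, Bcl6, Hspa1a, Kazald1, Rbp7, Rcan1, Socs3, Srxn1 and Vcan newly lower. The balance of the looser rule turned without BG EDL3, with 47 genes higher and 66 lower. It was near even without BG EDL1, with 72 and 68. Against the 65 genes past the adjusted threshold with all arrays, the count was 35, 14 and 21 without BF EDL1, 2 and 3, and 64 and 17 without BG EDL1 and BG EDL3. Of the 31 genes past it that are named here, 14, 8 and 10 passed without BF EDL1, 2 and 3, and 19, 10 and 12 without BG EDL1, 2 and 3. Sesn1, Myo5a and Snhg5 were past the adjusted threshold under all 14 alternatives tried.

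BG EDL2 carried high signals of genes of stratified epithelium, the layered lining of skin, mouth and oesophagus. In that tissue, keratins form the filaments of the cell, desmosomes bind the cells to each other, and loricrin with small proline-rich proteins builds the tough envelope of the dead outer cells. Such an envelope does not belong to the contractile tissue of a muscle. Counting genes in which 1 array exceeded each of the other 5 by more than 1 on the log2 scale, BG EDL2 had 93 (0.75% of genes). BF EDL2 had 22, BF EDL1 7 and BF EDL3 2, while BG EDL1 and BG EDL3 had 3 each. In 51 of the 93, BG EDL2 also exceeded all 17 other arrays of the series by more than 1.

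The largest excess was in Lor, which encodes loricrin. It read 4.47, 4.17 and 5.16 in BF EDL1, 2 and 3, against 4.79, 11.52 and 5.54 in BG EDL1, 2 and 3. Krt4, a keratin of the moist linings of mouth and oesophagus, read 5.17, 5.34 and 5.56 in BF and 5.34, 11.65 and 5.95 in BG. Its partner Krt13 read 4.25, 3.85 and 4.29 in BF and 4.28, 11.05 and 5.78 in BG. BG EDL2 was far above the rest in all 3 genes, and in Krt13 BG EDL3 stood above all BF arrays as well.

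Dsp, the plaque protein of the desmosome, read 8.96 in BG EDL2, against 3.18 to 3.61 in BF and 3.65 and 4.15 in BG EDL1 and BG EDL3. Krtdap and Dmkn, both secreted by differentiating keratinocytes, read 10.15 and 8.47 in BG EDL2, where no other array of the 6 exceeded 5.45 and 3.94. Mt4, a metallothionein of stratified epithelia, reached 9.29 in that array, with 4.72 as the highest of the others. Ada, adenosine deaminase, known for its high level in the mouse tongue, oesophagus and forestomach, reached 9.50, with 4.82 as the highest of the others.

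Not every epithelial gene took part. Krt1, a keratin of the upper layers of skin, read 4.22 in BG EDL2 and 3.93 to 4.23 in the other 5 arrays. Krt5 and Krt14, the pair of the basal layer, read 6.70 and 6.63 in BG EDL2, a step above the 5.57 and 5.4 of the next highest arrays. A dimmer probe set of Krt14 showed a larger step, with 7.13 in BG EDL2 and 4.41 to 4.55 in the other 5 arrays. Its dimmest read 4.6 in BG EDL2, inside the range of the others. Krt10, the partner of Krt1, read 7.92 in BG EDL2 and at most 6.55 in the others. Trp63, the factor of basal cells, read 5.57 in BG EDL2, inside the range of the others. These 5 genes were chosen after their values were seen.

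**Figure D1:**
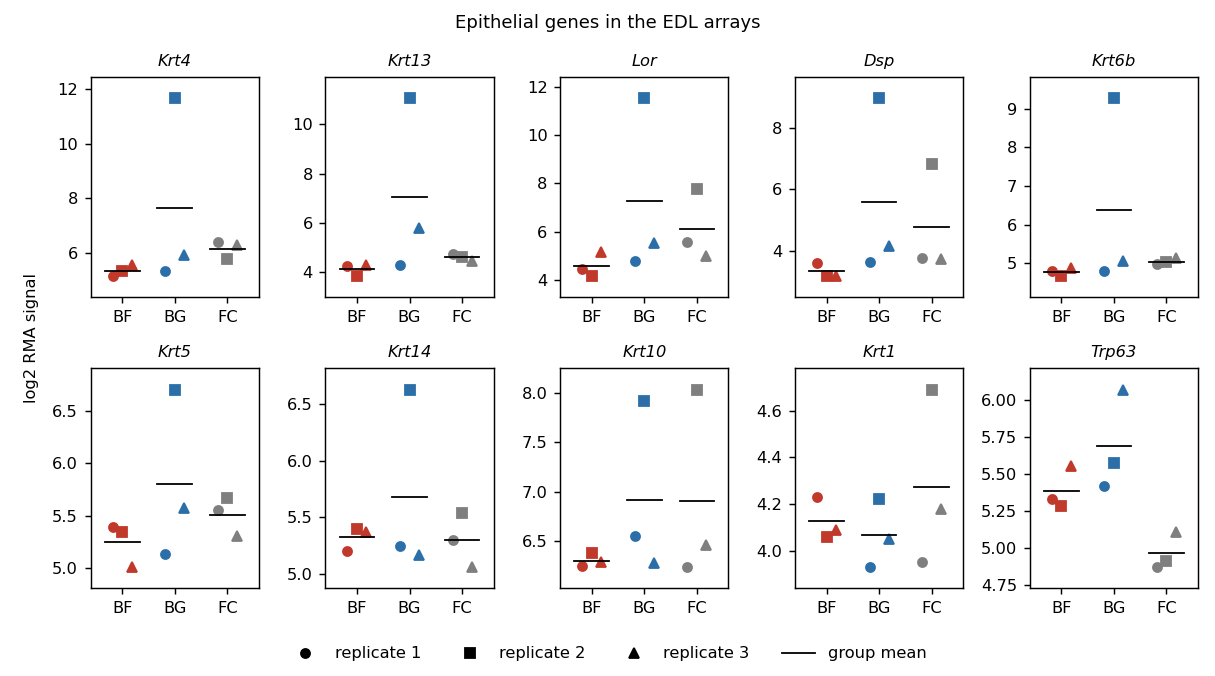
Log2 RMA signal of 10 epithelial genes in the 9 EDL arrays, with BF, BG and FC from left to right, 1 point per array shaped by replicate number and a bar at the group mean. BG EDL2 (blue square) stands at 11.05 to 11.65 for Krt4, Krt13 and Lor, a smaller step above the rest for Krt5 and Krt14, just below FC EDL2 for Krt10, and within the range of the rest for Krt1.

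By list, BG EDL2 exceeded the other 5 arrays by more than 1 in 11 of 15 keratins, 16 of 34 genes of the cornified envelope and epidermal differentiation, 5 of 30 genes of epithelial junctions and 5 of 18 hair follicle genes. In 15 mucosal and glandular genes and in 12 markers of other skin cells there were 0. The list mean of the keratins was 4.87, 4.73 and 4.89 in BF EDL1, 2 and 3, against 4.83, 7.04 and 5.13 in BG EDL1, 2 and 3. FC EDL had 4.99, 5.06 and 4.96. The same held for the cornified envelope genes, with 4.60 to 4.71 in BF and 4.69, 6.37 and 4.79 in BG.

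Epithelial signal of another makeup was found in FC EDL2 and in soleus of BF. FC EDL2 read 7.76 for Lor, 8.04 for Krt10 and 6.84 for Dsp, but 5.80 for Krt4 and 4.62 for Krt13, both level with the other FC arrays. BF SOL1 and BF SOL2 read 6.79 and 7.97 for Dsp and 8.96 and 10.24 for Krtdap, against 4.02 and 5.39 in BF SOL3, and Krt13 there was 4.46 and 4.21. High Krt4 and Krt13 were thus seen only in BG EDL2 among the 18 arrays.

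Genes high in BG EDL2 made up most of the lower side of the looser call. Of the 29 genes called lower in BF by the looser rule, 20 had BG EDL2 more than 1 above the other 5 arrays, and 19 of these 20 were no longer called when it was left out. The exception was Dbp, a clock gene described below, and only by a dimmer probe set. That one stood at -1.03 without BG EDL2 (unadjusted p = 0.0445 in limma). By its brightest probe set, at -0.97 (unadjusted p = 0.0752), Dbp was not called either. Krt13 was lower in BF by a log2 fold change of -2.91 (SE 1.0, unadjusted p = 0.0101, adjusted p = 0.25 in limma) and by -0.90 without BG EDL2 (adjusted p = 0.32). Lor had -2.68 (adjusted p = 0.39) and -0.56 without that array, and Krt4 -2.29 (adjusted p = 0.38) and -0.29.

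None of the 79 genes of the 3 epithelial lists passed the adjusted threshold in either direction. The median log2 fold change was -0.56 for the keratins, -0.35 for the cornified envelope genes and -0.12 for the junction genes, and -0.12, -0.08 and 0.03 without BG EDL2, beside -0.03 over all genes in both cases. Krt6a and Krt6b are near copies of each other, as are many members of the Sprr and Lce families, so their probe sets may read more than 1 gene. The other 9 genes that the looser rule called lower were Aurka, Cntfr, Fgfbp1, Nfic, Nr1d1, Slc15a2, Tfrc, Ucp3 and Ung.

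**Figure D2:**
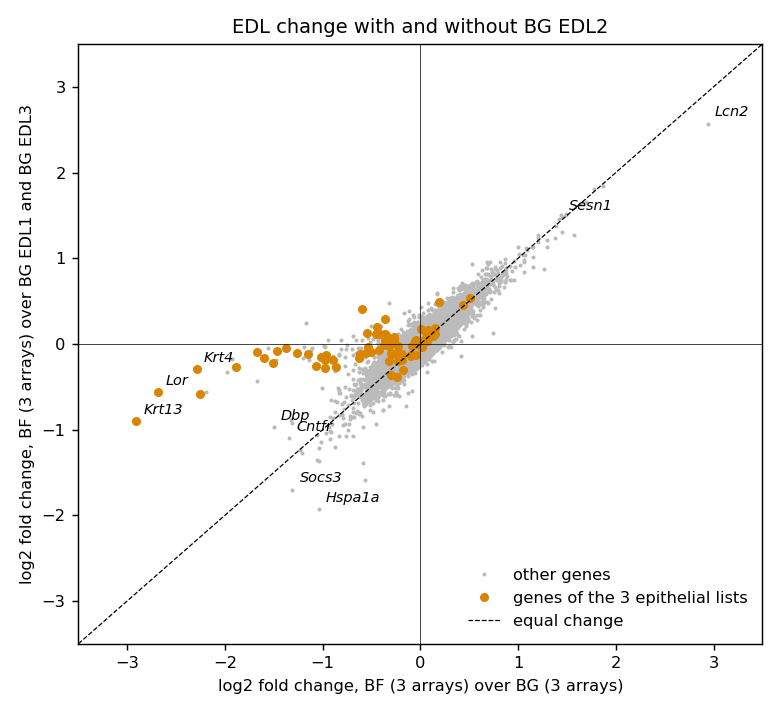
Log2 fold change of BF over BG EDL for each gene, with all 3 BG arrays on the horizontal axis and without BG EDL2 on the vertical axis. Genes of the 3 epithelial lists (orange) reach -2.91 on the horizontal axis and -0.90 on the vertical axis (Krt13 in both), while Sesn1 and Lcn2 keep to the dashed line of equal change or near it.

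The genes that rose included regulators of the insulin and mTOR pathway. Sesn1, a sestrin that restrains mTOR complex activity and is a known target of p53, read 10.24, 10.13 and 10.57 in BF, against 8.70, 8.93 and 8.98 in BG. The 2 groups were more than 1 apart with no overlap. Its log2 fold change was 1.45 (SE 0.14, adjusted p = 0.00014), or 2.72-fold, and 1.48 without BG EDL2 (adjusted p = 0.001). FC EDL averaged 8.55, on the side of BG.

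Eif4ebp1, the repressor of cap-dependent translation that mTOR switches off, read 10.31, 10.99 and 10.63 in BF, against 9.71, 9.53 and 9.10 in BG. It rose by 1.20 (SE 0.17, adjusted p = 0.005) and by 1.24 without BG EDL2 (adjusted p = 0.027). Pik3r1, the regulatory subunit of phosphoinositide 3-kinase, read 8.60, 9.31 and 8.80 in BF and 6.96, 7.14 and 7.53 in BG. It rose 3.23-fold (log2 fold change 1.69, SE 0.29, adjusted p = 0.022), with 1.66 and an adjusted p of 0.074 without BG EDL2.

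These 3 were the only genes to pass among the 23 measured insulin, mTOR and atrophy genes, whose median was 0.04. By the brightest probe set of each gene, on which all list counts rest, 0.266% of all genes rose and 0.113% fell, and the looser rule called 0.25% higher and 0.218% lower. Fbxo32, the atrophy ubiquitin ligase atrogin-1, read 12.33, 12.70 and 12.70 in BF, against 11.39, 11.51 and 11.55 in BG. The 2 groups did not overlap, but the difference of 1.09 missed the threshold (SE 0.59, adjusted p = 0.49). The standard error was 0.151 when the spread was taken from the 9 EDL arrays alone, with an adjusted p of 0.031, and 0.137 with an adjusted p of 0.051 from the 6 arrays of BF and BG. Igf1, Mtor and Insr differed by 0.04, -0.01 and -0.02.

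Of the 18 measured p53 target and growth arrest genes, only Sesn1 passed. Cdkn1a, the inhibitor p21 that halts the cell cycle, read 10.58, 10.21 and 10.79 in BF, against 9.0, 8.86 and 9.59 in BG. The groups were apart in every array, and the difference of 1.38 had an adjusted p of 0.094. The median of the list was 0.02.

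Acute phase genes made up the second group. Lcn2, the iron-binding lipocalin of neutrophils and stressed tissues, showed the highest log2 fold change of all genes that rose, 2.94 (SE 0.46, adjusted p = 0.0085). It read 9.19, 7.37 and 8.49 in BF, against 5.41, 4.65 and 6.16 in BG, a 7.70-fold difference of the means. Without BG EDL2 it was 2.57 higher (adjusted p = 0.045). FC EDL averaged 5.29.

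Serpina3n, a secreted protease inhibitor of the acute phase, read 6.68, 6.19 and 6.77 in BF and 5.26, 5.37 and 5.58 in BG, and rose by 1.14 (SE 0.22, adjusted p = 0.035). Il6ra, the receptor subunit for interleukin 6, read 6.81, 7.49 and 8.01 in BF and 6.27, 6.38 and 6.06 in BG, and rose by 1.20 (SE 0.23, adjusted p = 0.033). Neither passed without BG EDL2, with changes of 1.13 and 1.27 and adjusted p values of 0.11 and 0.074. A second, dimmer probe set of Il6ra differed by 0.21 (adjusted p = 0.57), and its groups overlapped. Of 20 measured genes of this list 3 rose and 0 fell, with a median of 0.15. Haptoglobin (Hp), Orm1 and S100a8 passed only the looser rule, with log2 fold changes of 1.39, 1.15 and 1.49 and adjusted p values of 0.22, 0.21 and 0.06. For Hp, FC EDL averaged 7.01, level with BF, beside 5.62 in BG.

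The neutrophil granule genes Ltf, Ngp and Camp differed by -0.03, 0.32 and 0.15, and none passed. Nor did any of 18 macrophage markers, with a median of -0.05. Socs3, a direct target of interleukin 6 signalling, ran the other way at -1.31 (adjusted p = 0.46), with 8.98 in BG EDL1 and 5.10 to 5.98 in the other 5 arrays.

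Lcn2 and Pik3r1 also stand in the list of glucocorticoid-responsive genes, where they were the only 2 of 25 to rise. The median there was 0.02. Fkbp5, a co-chaperone that is among the most sensitive glucocorticoid targets, read 11.26, 11.12 and 11.12 in BF, against 9.92, 10.25 and 10.59 in BG, a difference of 0.92 with an adjusted p of 0.16. The metallothioneins Mt1 and Mt2 differed by 0.53 and 0.42 and did not pass.

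Host genes of small nucleolar RNAs formed the third group. Their spliced transcripts code for no known protein, carry small nucleolar RNAs in their introns, and are degraded by nonsense-mediated decay. Several are classed with the ribosomal protein genes as transcripts that begin with a run of pyrimidines, whose translation follows mTOR. Because the list was the one with the highest median, the starts of 4 of its genes are shown, from 20 bases before the annotated start to 50 bases into the gene, in RefSeq sequence of GRCm38.p6. Capitals mark the longest run of C and T within the first 25 bases of the gene.
Snhg1, chr19:8723467-8723536, plus strand: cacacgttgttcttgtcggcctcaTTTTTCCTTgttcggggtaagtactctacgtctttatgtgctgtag
Snhg5, chr9:88522848-88522917, minus strand: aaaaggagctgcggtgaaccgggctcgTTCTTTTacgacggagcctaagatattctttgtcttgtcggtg
Snhg8, chr3:123508287-123508356, minus strand: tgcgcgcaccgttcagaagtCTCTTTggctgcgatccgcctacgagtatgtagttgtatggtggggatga
Gas5, chr1:161035146-161035215, plus strand: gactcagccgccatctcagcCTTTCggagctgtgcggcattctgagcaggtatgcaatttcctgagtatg

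The runs were 9 bases in Snhg1, 7 in Snhg5, 6 in Snhg8 and 5 at this start of Gas5. Only those of Snhg8 and Gas5 began at base 1 of the annotated gene, while those of Snhg1 and Snhg5 began at bases 5 and 8. Of all genes with a sequence at hand, 6.33%, 16.0%, 26.0% and 43.1% had a run at least as long in the same window. The other annotated start of Gas5 and the start of Snhg11, not shown, had runs of 3, a length that 85.4% of genes reached. The search was made after the values had been seen and describes letters only.

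Snhg5 read 8.81, 8.73 and 8.98 in BF, against 7.86, 7.72 and 7.74 in BG, with little spread inside either group. It rose by 1.07 (SE 0.14, adjusted p = 0.0026), and by 1.04 without BG EDL2 (adjusted p = 0.021). Gas5 read 10.71, 10.87 and 11.10 in BF, against 10.21, 10.23 and 10.29 in BG. It rose by 0.65 (SE 0.13, adjusted p = 0.039), with 0.64 and an adjusted p of 0.13 without BG EDL2. A second probe set of Gas5 also rose, by 0.59 (adjusted p = 0.034). Its dimmer ones overlapped between groups, at 0.20 and 0.42 (adjusted p = 0.83 and 0.5).

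The brightest probe set of Snhg1 missed the threshold, with a difference of 0.88 (adjusted p = 0.079). Another probe set of Snhg1 read 8.86, 8.61 and 9.05 in BF, against 7.87, 7.34 and 7.86 in BG, and passed with 1.15 (adjusted p = 0.005). Snhg8, Snhg6 and Snhg11 differed by 0.59, 0.34 and -0.16 and did not pass, and Snhg11 lay near the floor of the array at 2.84 to 3.48. The median of the 6 measured host genes was 0.62, and 0.66 without BG EDL2, beside -0.03 over all genes.

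Further genes rose that no list joins. Myo5a, the motor that carries vesicles along actin, read 6.57, 6.6 and 6.73 in BF, against 5.09, 5.31 and 5.17 in BG, and rose by 1.44 (SE 0.19, adjusted p = 0.0027). A second, dimmer probe set of Myo5a rose by 2.59 (adjusted p = 0.00011). Cdkal1, which modifies a transfer RNA for lysine, read 9.29, 9.16 and 9.68 in BF, against 7.81, 7.73 and 7.67 in BG, and rose 3.11-fold (log2 fold change 1.64, SE 0.33, adjusted p = 0.036). Both genes kept all BF arrays more than 1 above all BG arrays.

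Lrrc58, a leucine-rich repeat protein, read 10.94, 11.65 and 10.60 in BF and 9.81, 9.64 and 9.27 in BG, and rose by 1.49 (SE 0.24, adjusted p = 0.013). Net1, an exchange factor for RhoA, read 8.90, 9.14 and 8.51 in BF and 7.61, 6.69 and 7.56 in BG, and rose by 1.57 (adjusted p = 0.022). Retreg1, a receptor for the autophagy of endoplasmic reticulum, read 12.77, 12.84 and 12.59 in BF and 12.13, 11.63 and 11.76 in BG. It rose by 0.89 (SE 0.13, adjusted p = 0.005), and passed without BG EDL2 as well, with 0.79 (adjusted p = 0.033). The gene 6430548M08Rik read 8.96, 8.41 and 8.96 in BF and 7.44, 7.3 and 7.69 in BG. It rose by 1.3 (SE 0.19, adjusted p = 0.005), and by 1.21 without BG EDL2 (adjusted p = 0.033). A second, dimmer probe set of 6430548M08Rik rose by 1.07 (adjusted p = 0.022).

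Slc39a14, a zinc and iron transporter, rose by 1.05 (adjusted p = 0.022) and Npr3, the clearance receptor for natriuretic peptides, by 1.06 (adjusted p = 0.023). Npr3 read 7.92, 7.91 and 7.83 in BF, against 7.03, 6.68 and 6.78 in BG. Slc35f5, Cirbp and Trnt1 rose by 0.84, 0.81 and 0.81, each with an adjusted p of 0.043. Cirbp is an RNA-binding protein induced by cold, and Trnt1 adds the CCA end to transfer RNAs. For Trnt1, FC EDL averaged 7.66, between the 7.96 of BF and the 7.15 of BG. Of these 5 genes, Cirbp alone passed without BG EDL2 (adjusted p = 0.045). Without that array Slc39a14, Npr3, Slc35f5 and Trnt1 stood at 1.04, 0.98, 0.91 and 0.77.

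Some genes rose only through a probe set other than their brightest. Pnmt, which makes adrenaline, rose by 1.82 in one probe set (adjusted p = 0.005), while its others differed by 1.01 and 0.03. For Idh1, the cytosolic source of NADPH from isocitrate, one probe set rose by 1.19 (adjusted p = 0.018) and the other stood at 0.97 (adjusted p = 0.053). The probe sets of Synj2, a phosphoinositide phosphatase, disagreed: one rose by 1.18 (adjusted p = 0.0074), and the other 5 ran from -0.72 to 0.02.

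**Figure D3:**
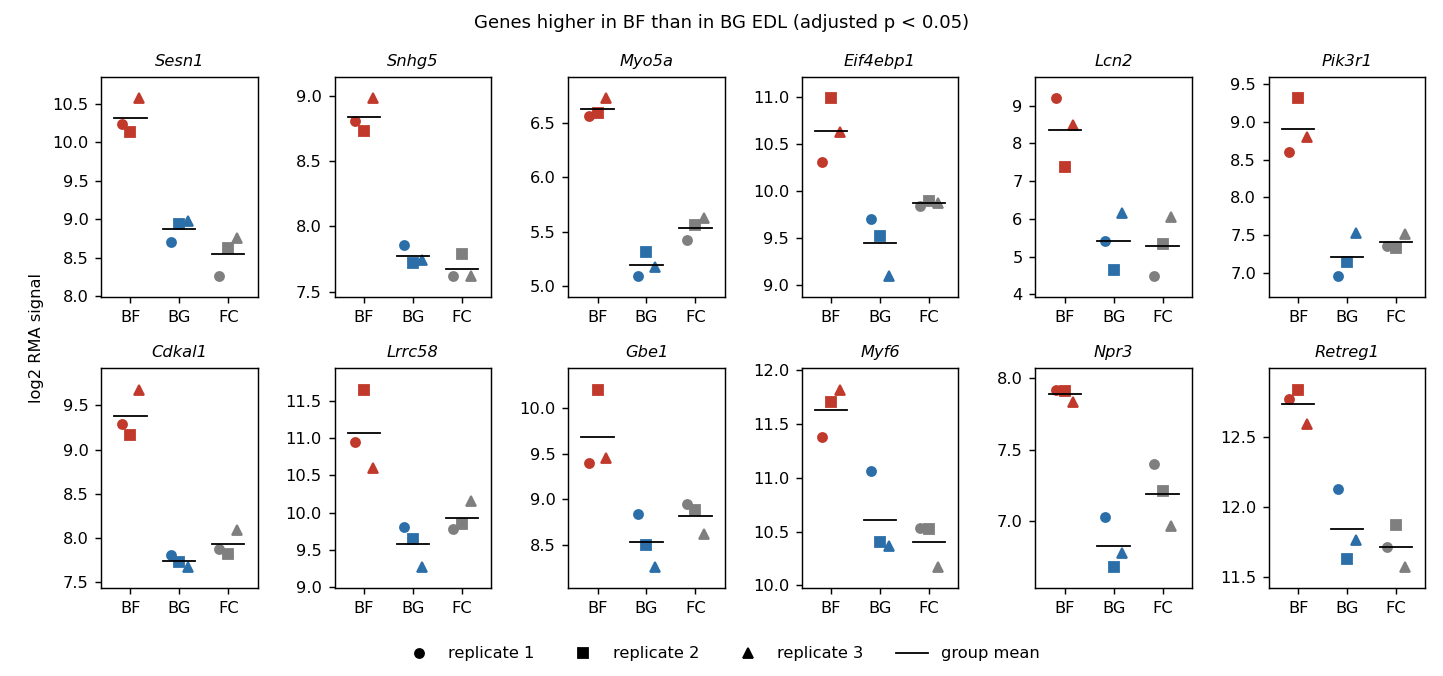
Log2 RMA signal of 12 genes higher in BF than in BG EDL at an adjusted p under 0.05, with BF, BG and FC from left to right, 1 point per array shaped by replicate number and a bar at the group mean. All BF points lie above all BG points in each gene, and the FC points lie nearer to BG for Sesn1, Snhg5 and Lcn2.

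Among genes of the fibre itself, few changed. Myf6, the myogenic factor that stays on in adult fibres, read 11.38, 11.70 and 11.82 in BF, against 11.06, 10.40 and 10.37 in BG. It rose by 1.02 (SE 0.20, adjusted p = 0.034), and by 0.92 without BG EDL2 (adjusted p = 0.14), with BG EDL1 closest to BF. Gbe1, the glycogen branching enzyme, read 9.40, 10.20 and 9.45 in BF and 8.84, 8.50 and 8.26 in BG, and rose by 1.15 (SE 0.20, adjusted p = 0.022). It was the only one of 20 glycolysis and glycogen genes to pass.

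None of 15 fast fibre genes, 15 slow fibre genes, 27 respiratory chain genes or 21 genes of fatty acid uptake and oxidation passed. Fast fibre genes had a median of 0.02 and differed by -0.27 to 0.41. With list means of 13.65 to 13.79 in EDL, they lay near the highest signal of all arrays, 14.53. Differences there may be compressed, which was not tested. Slow fibre genes had a median of -0.17, and -0.39 without BG EDL2. Their list mean was 8.90, 8.94 and 8.32 in BF and 9.50, 8.52 and 8.53 in BG, so BG EDL1 lay above all the others and BF EDL3 below. Respiratory chain genes had a median of -0.07 and none differed by more than 0.28. Ucp3, the uncoupling protein of muscle mitochondria, was called lower by the looser rule only, at -1.06 (adjusted p = 0.2). Its FC EDL mean was 8.49, below the 8.96 of BF and the 10.02 of BG.

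The genes that fell were led by Cntfr, a receptor subunit for ciliary neurotrophic factor. It read 6.20, 6.0 and 6.32 in BF, against 6.97, 7.99 and 7.57 in BG, and fell by 1.34 on the log2 scale (SE 0.24, adjusted p = 0.023). It was the 1 gene to fall among 24 myogenic and neuromuscular junction genes, where Myf6 was the 1 to rise. Without BG EDL2 its difference was -1.10 (adjusted p = 0.096).

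Aurka, the mitotic kinase, read 5.15, 4.95 and 5.29 in BF, against 6.80, 6.21 and 6.0 in BG, and fell by 1.21 (SE 0.23, adjusted p = 0.032). Ung, which removes uracil from DNA, read 5.95, 6.02 and 6.17 in BF, against 7.15, 7.10 and 7.07 in BG, and fell by 1.06 (SE 0.20, adjusted p = 0.026). They were the 2 of 24 cell cycle genes to pass, and the proliferation genes Mki67, Top2a and Pcna stood at -0.30, -0.26 and 0.16. The median of the list was -0.04.

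Rbp7, a retinol-binding protein of fat and endothelium, read 5.84, 5.70 and 5.99 in BF, against 7.10, 6.59 and 6.61 in BG. It fell by 0.93 (adjusted p = 0.024) and was, of the genes named here, the only one to fall both with and without BG EDL2 (then -1.02, adjusted p = 0.045). Trak1, an adaptor that moves mitochondria along microtubules, read 8.38, 8.34 and 8.33 in BF, against 8.94, 9.11 and 8.94 in BG, and fell by 0.65 (SE 0.11, adjusted p = 0.013). Tnfaip2, induced by tumour necrosis factor, read 6.96, 6.64 and 6.87 in BF, against 7.71, 8.91 and 7.78 in BG. It fell by 1.31 (adjusted p = 0.043) with all arrays and differed by -0.92 (adjusted p = 0.14) without BG EDL2, its highest array. Gprc5c, Iqsec1, Pdzrn3 and Slc25a39 fell by 0.80, 0.73, 0.65 and 0.61.

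**Figure D4:**
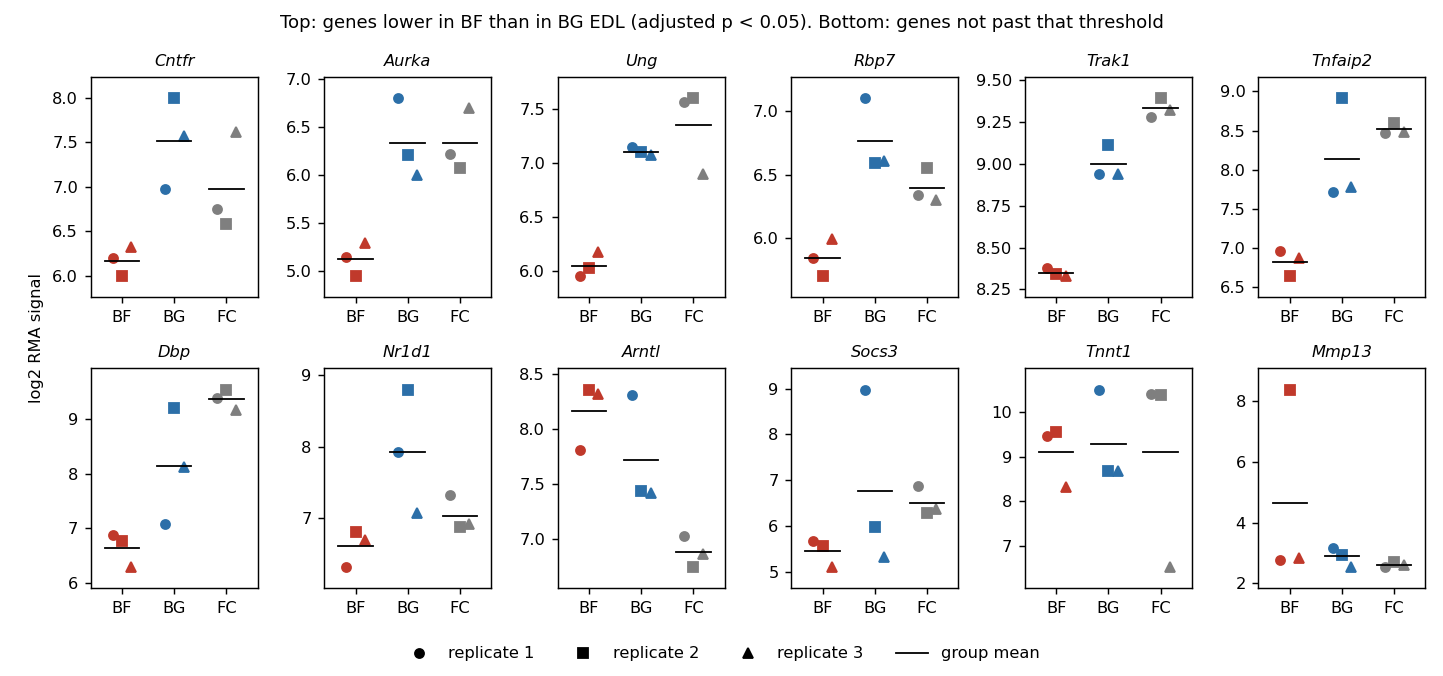
Log2 RMA signal in the 9 EDL arrays, with BF, BG and FC from left to right, 1 point per array shaped by replicate number and a bar at the group mean. The top row shows 6 genes lower in BF at an adjusted p under 0.05, with all BF points below all BG points, and the bottom row 6 genes that did not pass, such as Socs3, where BG EDL1 stands at 8.98, and Mmp13, where BF EDL2 stands at 8.39.

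Dbp and Nr1d1, both called lower by the looser rule, belong to the circadian clock. In it, Arntl with its partner drives the Per, Cry and Nr1d genes and Dbp through the E-box CACGTG, and Nr1d1 in turn represses Arntl, so their levels turn with the time of day. Dbp, the clock output factor, read 6.87, 6.76 and 6.29 in BF, against 7.08, 9.21 and 8.13 in BG. Its difference of -1.50 passed only the looser rule (adjusted p = 0.25), and the 3 BG arrays spread over more than 2 log2 units. Nr1d1 read 6.32, 6.81 and 6.70 in BF, against 7.93, 8.80 and 7.07 in BG, with -1.32 (adjusted p = 0.17). Without BG EDL2 it stood at -0.89, short of the looser rule, and FC EDL averaged 7.04. In soleus Nr1d1 ran the other way, at 0.92, while Dbp stood at -1.94. The Nr1d1 change differed between muscles by -2.24 (interaction in limma, adjusted p = 0.021).

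Arntl read 7.81, 8.36 and 8.32 in BF, against 8.31, 7.43 and 7.42 in BG, a difference of 0.44 (adjusted p = 0.65). BG EDL1 had the lowest Dbp and the highest Arntl of its group. In BG soleus, too, number 1 had the lowest Dbp and the highest Arntl, with Dbp at 6.58, 9.26 and 8.33 and Arntl at 8.81, 7.22 and 7.47 in BG SOL1, 2 and 3. The labels do not say whether an EDL and a soleus of 1 number came from 1 mouse, or give the hour of dissection, so the part of clock time in these differences was not tested. None of 17 clock genes passed the adjusted threshold, and the median was -0.17, and -0.01 without BG EDL2.

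The window from 250 bases before to 50 after the annotated start held the E-box, on either strand, in 4 of 15 clock genes with a sequence, namely Per1, Cry1, Tef and Bhlhe41. It was in 8 of 21 glucocorticoid-responsive genes and in 8.09% of 27025 genes. The D-box TTATGTAA was in Per3 alone of the clock genes (1.11% of all genes), and the full palindrome of the glucocorticoid response element in Sgk1 alone of the glucocorticoid-responsive genes (0.0111%). An E-box and a D-box cannot share bases.

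Fat markers leaned towards BF without passing. Adipoq, the hormone adiponectin of fat cells, read 7.74, 8.87 and 9.16 in BF, against 6.28, 6.66 and 7.23 in BG. The groups did not overlap, and the difference of 1.87 had an adjusted p of 0.067. FC EDL averaged 8.97, level with BF. Of 20 measured adipocyte markers 0 passed the adjusted threshold and 2, Adipoq and Scd1, the looser one. The median was 0.28, with 13 markers above 0 and 7 below. All BF arrays lay above all BG arrays in 6 markers and below them in 0, beside 6.78% and 8.75% of all genes. Fabp4, Lpl and Lipe, among the 7 below 0, stood at -0.08, -0.09 and -0.12. The list mean was 8.04, 8.18 and 8.39 in BF and 7.67, 7.84 and 7.97 in BG, and its part in other results was not tested.

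BF EDL2 held a signal of its own, which included some genes known from bone. Ibsp, bone sialoprotein of bone-forming cells, read 9.29 in that array and 2.58 to 3.03 in the other 5 by one probe set, and 4.86 against 3.63 to 3.96 by its brighter one. Mmp13, a collagenase of bone and cartilage, read 8.39 in that array and 2.53 to 3.17 in the other 5. Acp5, the acid phosphatase of osteoclasts, read 5.0, 7.41 and 5.37 in BF, against 4.57, 4.19 and 4.68 in BG, and was called higher by the looser rule at 1.45 (adjusted p = 0.2). Mmp9, a gelatinase, and Cdh11, a cadherin of mesenchymal cells, read 7.29 and 7.09 in BF EDL2, with 5.45 and 5.58 as the highest of the others. Ctsk, the collagen-degrading protease of osteoclasts, took little part, at 8.26 in BF EDL2 and 8.09 in BF EDL1. Of the 43 genes the looser rule called higher, 9 had BF EDL2 more than 1 above the other 5 arrays. Csrp3, a muscle stretch protein more typical of slow fibres, read 13.02 in BF EDL2 and 9.72 to 11.10 in the others.

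The remaining lists had no gene past the adjusted threshold. They were collagens and matrix, tendon and cartilage, interferon response, heat shock proteins, immediate early genes, red blood cells, endothelium, smooth muscle and pericytes, Schwann cells and nerve, glands, hair follicle and other skin cells. Endothelial markers had a median of -0.26 with 14 of 16 below 0, and their list mean was 7.83, 7.56 and 7.56 in BF and 7.80, 8.05 and 7.89 in BG. Tfrc, the transferrin receptor, counted among the red blood cell markers, was lower by -1.04 in BF under the looser rule only (adjusted p = 0.12). Postn and Aspn, matrix proteins of fibroblasts, were called higher by the looser rule at 1.15 and 1.06 (adjusted p = 0.34 and 0.26). Postn read 9.13, 9.88 and 7.02 in BF, against 7.63, 7.02 and 7.94 in BG, with BF EDL3 at the level of the lowest BG array. In Aspn, BF EDL3 lay inside the BG range by the brightest probe set, while by the other all BF arrays lay above BG (1.13, adjusted p = 0.073).

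The change in EDL was set against that in soleus by the interaction of muscle and flight, with the arrays of the 2 muscles taken as unpaired. By the brightest probe set of each gene it passed an adjusted p under 0.05 for 625 genes with a higher change in EDL (5.04%) and 522 with a lower one (4.21%); the 1147 in all came to 691 without BF EDL1, 683 without BF EDL2, 735 without BG EDL2 and 475 without BG EDL3. Gbe1 rose in EDL, while in soleus it read 9.26, 9.19 and 9.10 in BF, against 9.73, 9.97 and 10.11 in BG. The 2 changes differed by 1.90 (adjusted p = 0.0018). Npr3 likewise stood at 8.45, 8.81 and 7.80 in BF soleus and 9.44, 9.20 and 9.19 in BG soleus, and its changes differed by 1.98 (adjusted p = 0.00088).

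Cntfr fell in EDL but read 6.36, 6.35 and 6.43 in BF soleus and 5.82, 5.73 and 5.81 in BG soleus, a difference between muscles of -1.93 (adjusted p = 0.0044). Aurka, at 5.41, 4.45 and 5.10 in BF soleus and 4.95, 4.60 and 4.93 in BG soleus, differed by -1.37 (adjusted p = 0.018). Eif4ebp1 and Cdkal1 showed no such difference past the threshold, with differences of 0.07 and -0.02 on the log2 scale (SE 0.25 and 0.46) and adjusted p values of 0.88 and 0.99. The probe sets of Sesn1 disagreed. Its brightest differed by 0.37 (SE 0.20, adjusted p = 0.24), and the others by 1.54 and 1.33 (adjusted p = 0.028 and 0.015), with soleus changes of 0.06 and 0.54. A p above the threshold does not show that the 2 muscles changed alike.

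**Figure D5:**
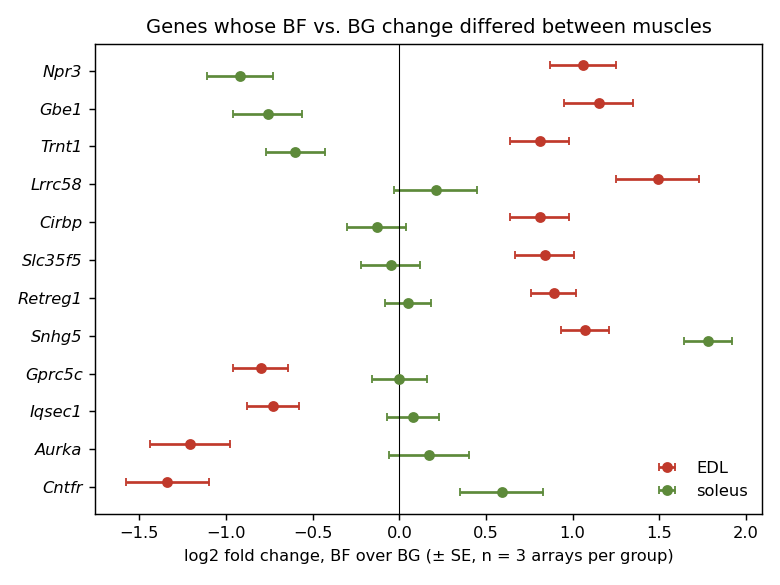
Log2 fold change of BF over BG in EDL (red) and soleus (green) for 12 genes whose change differed between muscles at an adjusted p under 0.05, with bars of 1 SE and 3 arrays per group. Npr3, Gbe1 and Trnt1 lie above 0 in EDL and below 0 in soleus, Cntfr the other way round, and Snhg5 lies above 0 in both, farther in soleus.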

How the data were processed

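Total RNA of each muscle was labelled by in vitro transcription and hybridised to an Affymetrix GeneChip. The deposited values are log2 signals. The authors computed them with RMA in Partek Genomics Suite, which corrects the background, equalises the quantiles of all 18 arrays, takes logs and summarises each probe set by median polish, so each array's values depend on those of both muscles. They run from 2.11 to 14.53 and were used as deposited. Of 22690 probe sets, 64 controls were left out and 22626 tested without a filter. By the platform annotation 20380 named 1 gene, of which 20351 matched a RefSeq record, 691 named several and 1555 none, which gave 12393 genes, 4956 with more than 1 probe set. Chromosomes and sequences are those of GRCm38.p6. Arrays have no read depth, and 3 per group limit the precision.

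Samples were grouped by their titles. A mean for each group was estimated with limma 3.58.1 (R 4.3.3) from all 18 arrays, variances were moderated by empirical Bayes (12 residual degrees of freedom and 5.1 from the prior), and p values were Benjamini-Hochberg adjusted over the 22626 probe sets. The contrasts were BF minus BG in EDL and its difference from that in soleus. An exact permutation test of 3 against 3 arrays could not go below 0.10. The p values measure the spread between these arrays. A gene was counted when any probe set naming it alone passed, and its printed values and list counts come from its brightest probe set over the 18 arrays. Figures were drawn with matplotlib 3.10.9. The fit was tested on simulated data first.

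The comparison, the 30 gene lists, the tests and the alternatives were chosen with earlier results of these data known. Genes were named by rule: among genes past the adjusted threshold without overlap between groups, the 20 highest and 10 lowest changes; up to 4 called members per list; up to 12 epithelial genes with the largest excess in BG EDL2; up to 10 in each direction called by the looser rule only with or only without BG EDL2; and the genes the study names for EDL. Other genes were named after their values were seen, among them Krt1, Krt5, Krt10, Krt14, Trp63, Ibsp, Ctsk, Mmp13, Mmp9, Cdh11, Csrp3, Arntl, Myh4, Pvalb, Fkbp5 and the list members that did not pass. The alternatives were other sets of arrays in the fit, ordinary contrasts, array weights, a filter on low signal (above 6 in at least 3 arrays), centring, a second quantile normalization, a replicate block, 1 probe set or the mean of probe sets per gene, and each array left out. Some genes chosen by these rules are not described, and some genes of the study are not analysed here.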

Additional observations from a re-analysis of the deposited data

Results flagged for a closer look

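Groups of 3 arrays were too small to test for outlying samples. Among the genes with the largest changes past the adjusted threshold, the change in EDL differed from that in soleus (interaction in limma, adjusted p under 0.05) in 12. The change in EDL minus that in soleus, on the log2 scale, was 1.98 for Npr3, 1.90 for Gbe1, 1.41 for Trnt1, 1.28 for Lrrc58, 0.94 for Cirbp, 0.89 for Slc35f5 and 0.84 for Retreg1. It was -1.93 for Cntfr, -1.37 for Aurka, -0.81 for Iqsec1, -0.80 for Gprc5c and -0.71 for Snhg5. In soleus, Npr3, Gbe1 and Trnt1 had log2 fold changes of -0.92, -0.76 and -0.60 (adjusted p 0.0028, 0.013 and 0.017), and Snhg5 had 1.78 (adjusted p = 7.6e-07).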

How the results depend on the processing

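With all arrays 65 genes passed the adjusted threshold, 72 the looser rule and 29 both conditions. The adjusted count was 27 with the 9 EDL arrays only, 9 with the 6 arrays of BF and BG, 13 with ordinary contrasts and 436 with array weights, and 14 to 64 with 1 array left out. The count under both conditions was 9 with the 6 arrays and 7 with ordinary contrasts, and 13 to 28 with 1 array left out. The looser count was 49 to 140 with 1 array left out, highest without BG EDL1 (140, 72 higher and 68 lower) and BG EDL3 (113, 47 higher and 66 lower). Where 1 array was left out there were fewer samples; the cause of the other shifts was not tested. Array weights gave BG EDL2 0.52 and BF EDL2 0.49, the lowest of the 6.

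Same-numbered BF and BG arrays did not deviate together (correlations of -0.11, 0.0798 and 0.297), so between BF and BG the numbers were taken as names. With a replicate block 80 genes passed the adjusted threshold and 76 the looser rule.

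The difference between muscles passed for 1147 genes, and for 475 to 1296 with 1 EDL array left out. Deviations of EDL and soleus arrays of 1 number in 1 condition correlated at -0.0491 to 0.373, not above 0.1 in all 9 pairs, so these were not taken as paired either. With a replicate block across muscles, added after seeing the data, 1223 genes passed, 939 of them among the 1147. Among list members 13 passed with all arrays and 4 without BG EDL2. Of 31 named genes past the adjusted threshold, none reversed, 3 (Sesn1, Myo5a and Snhg5) passed under all 14 alternatives, 7 with the 6 arrays only, and 10 without BG EDL2. The files give no background per probe set, so signals near the lowest value, such as those of Snhg11 and of epithelial genes outside BG EDL2, are not ordered among themselves.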
